A study of Mus musculus with 8 samples.

Results

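Genes for the proteins of the cytosolic ribosome were followed in nuclear RNA of the mouse embryonic fibroblast line NIH3T3 under heat shock (HS, 44 °C), osmotic stress (KCl, 200 mM) or oxidative stress (H2O2, 0.2 mM), each for 2 h, and in untreated cells (UN). Members were chosen by symbol: the Rpl and Rps names with their numbered, lettered and like forms, the stalk genes Rplp0, Rplp1 and Rplp2, and Rpsa and Fau, without pseudogene names and without Rps27a. The rule found 86 of the 44363 names in the deposited tables. They comprise 43 genes of the large subunit, 32 of the small subunit, 3 of the stalk and 8 like paralogs. Each group had 2 libraries, replicates 1 and 2, and the labels do not state that they were grown as separate cultures. The p-values thus reflect spread between libraries that could be purely technical. All 4 groups are the same line without any transgene or deletion named in the labels, and nuclei were enriched before RNA was taken.

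Each cytosolic ribosome holds a small subunit, which reads the mRNA, and a large subunit, which joins amino acids. Their proteins are needed in equal amounts, apart from the acidic stalk proteins, and in mammals each is encoded mostly by a single intron-containing gene beside many processed pseudogenes. The mRNAs begin with a cytosine and a run of pyrimidines, the terminal oligopyrimidine (TOP) tract, through which the kinase mTOR and the protein LARP1 control their translation. Many of the genes also carry small nucleolar RNAs (snoRNAs) in their introns.

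The first 20 bases of 6 members' mRNAs are shown because the tract is the family's shared sequence mark. They come from protein-coding transcripts of GENCODE M21, 5′ to 3′, with a tract at the start (C and at least 4 pyrimidines) in capitals. Rps2, Rpl30 and Rpl26 were called lower under heat shock below, while Rpl13a, Rps13 and Rpl29 were among the members nearest to 0.
Rps2: CTTCTTCTTCTTCgggagaa
Rpl30: CCTTTCTCgctccccggcca
Rpl13a: CCTTTCCCaggcggctgccg
Rps13: CTCTTTgctgccagacctcc
Rpl29: CTCTTCCggtctccggcgct
Rpl26: gtagttctctttccttttgc
The annotated Rpl26 transcript begins shortly before a stretch rich in pyrimidines and so held no tract by this definition. At least 1 annotated transcript began with a tract for 23 of the 83 members with a protein-coding transcript (27.7%), against 1121 of 21842 protein-coding genes (5.13%). Annotated starts can miss the true start by several bases, and a gene with more transcripts has more chances of a match.

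Upstream windows were searched for 3 short motifs, and 3 members with such a match are shown because they stood at the ends of the comparisons below. The windows run from 250 bases before to 50 bases after the RefSeq start (GRCm38.p6) and were found for 65 members. CCGGAAG, a core that ETS factors bind, lay on either strand in 26 windows (40%) against 9.93% of 27025 genes. AAGATGGC, a YY1 motif, lay on either strand in 7 windows (10.8%) against 3.19% of genes. CTTTCC on the gene's strand lay in 25 windows (38.5%) against 16% of genes. The 100 bases before the start follow, 5′ to 3′ on the gene's strand, with matches in capitals. They are chr11:114668480-114668579 (plus strand) for Rpl38, chr10:128549169-128549268 (minus strand) for Rpl41 and chr16:33056414-33056513 (plus strand) for 1 of the RefSeq starts of Rpl35a, where CTTTCC and the reverse of AAGATGGC adjoin.
Rpl38: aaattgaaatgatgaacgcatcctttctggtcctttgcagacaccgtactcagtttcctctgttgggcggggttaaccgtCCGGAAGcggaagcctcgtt
Rpl41: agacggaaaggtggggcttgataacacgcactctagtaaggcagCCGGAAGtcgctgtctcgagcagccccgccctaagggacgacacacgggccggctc
Rpl35a: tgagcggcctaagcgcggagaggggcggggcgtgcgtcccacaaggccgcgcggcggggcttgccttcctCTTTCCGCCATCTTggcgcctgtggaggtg
A match is a run of letters and not a measured binding site.

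The values are RPKM, read counts scaled to gene model length and to the library's mapped reads. They are thus per length and can be set beside each other between genes, except where reads may be divided among copies. RPKM is a share of a library: less ribosomal protein RNA per cell and more of other RNA cannot be told apart, nor can unspliced RNA, mature nuclear mRNA and carried-over cytoplasmic mRNA. Library sums were 503430 to 771673 RPKM apart from KCl replicate 1, at 1943321 RPKM. In that library the row AC113316.1 held 1025070 RPKM and Malat1, a long non-coding RNA of the nucleus, was listed at 0, while the remaining 7 libraries had 1844 to 2332 RPKM of it. The members' median for KCl against UN and the call count for HS against KCl are therefore also given without it. Single genes, lists and counts without overlap are given only with it. Relative depth was read from the commonest ratio to UN replicate 1 among rows low in both libraries. It was 0.727 to 1.01 times that of UN replicate 1. The estimate is rough, since in KCl replicate 1 only 186 of 4120 such rows held the commonest ratio. All 8 fibroblast marker genes looked up passed the filter, and 4 of 11 markers of other cell types did, with summed levels of 11.6 to 34 RPKM over those 11.

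The members' summed level was 7898 and 7911 RPKM in HS libraries, 12979 and 14282 RPKM in KCl libraries, 12159 and 10665 RPKM in H2O2 libraries, and 12307 and 11675 RPKM in UN libraries. Both HS libraries were the lowest of the 8, and both KCl libraries were the highest. This order holds for values as deposited and depends on the scaling, since library sums differed. With libraries scaled to a common sum, both HS libraries lay below both KCl libraries for 0 members (1.57% of all rows). They lay above both for 11 members (50.3% of all rows). Of the 86 members, 83 were tested, those with 0.5 RPKM or more in 2 or more libraries. Rpl10l, known from testis, Rpl3l, known from striated muscle, and Rps4l stayed under that level. Rps3a, an older name of Rps3a1 in RefSeq, passed only through HS libraries (0.689 and 1.32 RPKM) and KCl replicate 1 (2.36 RPKM) and is listed near 0 in H2O2 and UN libraries, so its difference carries no weight.

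Levels of the members' own rows differed widely, although their proteins are used in equal amounts. In UN libraries, 82 members were above 1 RPKM, with means from 5.94 RPKM for Rpl17 to 978 RPKM for Rpl8, a 165-fold range, and a median of 67.3 RPKM. Rpl8, at the heart of the peptidyl transferase region, was at 794 and 763 RPKM in HS libraries, 1161 and 1230 RPKM in KCl libraries, 881 and 781 RPKM in H2O2 libraries and 991 and 965 RPKM in UN libraries. Also high in UN were Rps9 (790 RPKM), Rpl39 (699 RPKM) and Rplp0 (510 RPKM). At the low end were Rpl17, Rpl38 (15.5 RPKM), Rpl29 (17.7 RPKM) and Rpl28 (17.8 RPKM). Rpl38, Rpl29 and Rpl28 overlapped among themselves in their UN libraries, while Rpl17 lay below all of them. For Rpl17, Rpl38 and Rpl28 the highest pseudogene row was above the gene in UN, at 13, 818 and 35.8 RPKM. For Rpl29 it was below, at 1.82 RPKM. The range is thus one of rows, and the part of reads divided among copies was not tested.

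Rows of copies stood beside the members' own rows. The tables hold 161 rows named as pseudogenes of 53 members, and 19 of those rows are at 0 in every library. Only names made of a member's symbol followed by -ps were searched. Copies under other names, such as Gm names, were not looked up, so a member without such a row can still have copies. For 23 of the 53 members the highest pseudogene row exceeded the gene's own row in UN. Rpl38-ps2 averaged 818 RPKM in UN against 15.5 RPKM for Rpl38, Rplp2-ps1 535 RPKM against 81.5 RPKM for Rplp2, and Rpl3-ps1 305 RPKM against 46.1 RPKM for Rpl3. How the authors' counting divided reads between near-identical copies is not given in the sources used here, so the levels of such members are uncertain. Rpl26 is at the other end among rows so named: its highest pseudogene row was at 0.0272 RPKM in UN, against 28.6 RPKM for the gene.

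**Figure D1:**
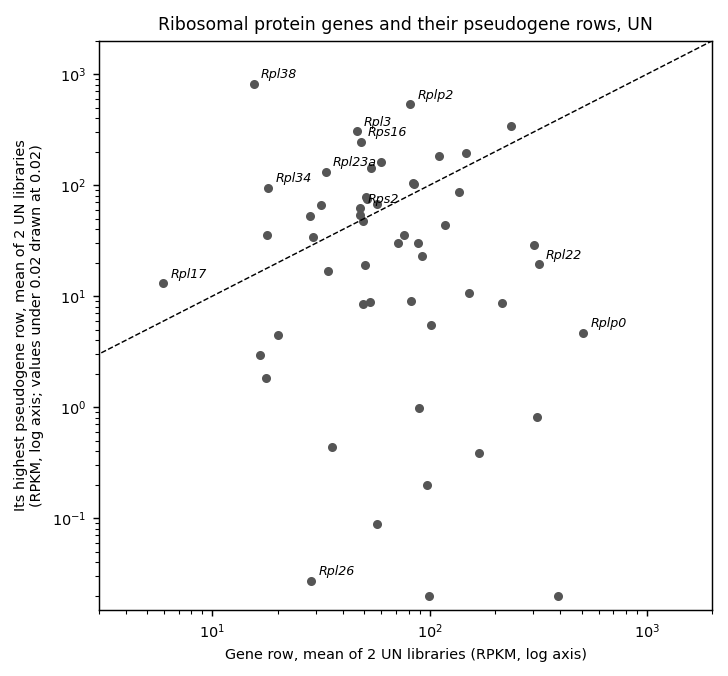
Mean RPKM of each of 53 members (horizontal log axis) against that of its highest pseudogene row (vertical log axis) in the 2 UN libraries, with the line of equality dashed. Points above the line, 23 of 53, are members whose pseudogene row is higher, with Rpl38 the farthest above, and Rpl26 is among those far below.

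Heat-shocked cells were compared with untreated cells to ask how stress changes nuclear RNA. Of the 83 members tested, 15 were lower by limma at an adjusted p under 0.05 (4.08% of all 16056 rows were called lower), 0 were higher (2.54% of all rows) and 68 did not pass. Both HS libraries lay below both UN libraries for 77 members (35.8% of all rows) and above both for 1 (22% of all rows), which was Rps3a. At an unadjusted p under 0.05 stood 55 members. The share of all rows at that threshold was not computed, so this count is not read further. The median log2 change was -0.59, and -0.09 over all rows. All log2 changes are on the log2(RPKM + 0.5) scale, which understates changes of low genes.

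Among large-subunit genes 7 of 43 were lower, with a median of -0.54. Rpl26, which lies near the exit of the peptide tunnel, had 8.67 and 8.50 RPKM in HS libraries against 30.6 and 26.6 RPKM in UN libraries. It changed by -1.68 (SE 0.26, limma adjusted p = 0.022), and its HS values were far below both UN values. Rpl10a, of the mobile L1 stalk, had 66.0 and 57.2 RPKM in HS libraries against 181 and 114 RPKM in UN libraries (-1.22, SE 0.26, limma adjusted p = 0.044). The 2 UN libraries of Rpl10a differed from each other more than the HS libraries did, without overlap between the groups. Rpl10a-ps1, higher than the gene, averaged 136 RPKM in HS and 195 RPKM in UN, a smaller change (-0.52).

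Rpl5 and Rpl11 bind 5S ribosomal RNA and, when free, the p53 regulator Mdm2. Rpl5 was at 44.1 and 45.2 RPKM in HS libraries against 89.1 and 95.5 RPKM in UN libraries, a fall of about the same size in both tables (-1.04, SE 0.16, limma adjusted p = 0.020). Rpl11 was at 18.7 and 19.0 RPKM in HS libraries against 27.1 and 24.0 RPKM in UN libraries, without overlap but short of the threshold (-0.43, SE 0.17, limma adjusted p = 0.18). Rpl3, part of the peptidyl transferase region, had 26.2 and 20.2 RPKM in HS libraries against 48.3 and 43.9 RPKM in UN libraries (-0.98, SE 0.20, limma adjusted p = 0.039). The other large-subunit calls, listed because they passed, were Rpl18 (-0.84), Rpl27 (-0.79) and Rpl30 (-0.73). Rpl30 had 37.5 and 34.3 RPKM in HS libraries against 62.4 and 57.3 RPKM in UN libraries. Its pseudogene rows summed to more than the gene, at 305 RPKM in HS and 353 RPKM in UN.

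Small-subunit genes had a median of -0.64, with 8 of 32 lower. Rps2, which lines the mRNA entry of the small subunit, was at 18.4 and 16.2 RPKM in HS libraries against 49.5 and 46.2 RPKM in UN libraries (-1.44, SE 0.17, limma adjusted p = 0.013). Rps28, at the mRNA exit, had 22 and 21.3 RPKM in HS libraries against 66.0 and 53.8 RPKM in UN libraries (-1.44, SE 0.17, limma adjusted p = 0.013). Rps12 had 21.7 and 14.7 RPKM in HS libraries against 52.6 and 46.2 RPKM in UN libraries (-1.44, SE 0.26, limma adjusted p = 0.031). These 3 genes were the lowest of their subunit, and in each the HS libraries lay well under the UN libraries. The summed pseudogene rows of Rps2 were at 78.3 RPKM in HS and 82.1 RPKM in UN, so the size of its change is uncertain. Those of Rps12 were at 67.4 RPKM in HS and 88 RPKM in UN, and Rps28 had none named.

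Rps23, whose protein reaches into the decoding centre, had 25.9 and 27.1 RPKM in HS libraries against 40.7 and 37.9 RPKM in UN libraries (-0.56, SE 0.12, limma adjusted p = 0.041). Its fall was the smallest of the 15 called. Also called were Rps4x (-0.99) and Rps21 (-0.94). Rps6, the substrate of the S6 kinases below mTOR, had 110 and 114 RPKM in HS libraries against 159 and 146 RPKM in UN libraries and missed the threshold (-0.44, SE 0.14, limma adjusted p = 0.11). Its HS values still lay below its UN values. Fau, whose product is made as a fusion with a ubiquitin-like domain, had 42.4 and 46.0 RPKM in HS libraries against 60 and 54.1 RPKM in UN libraries (-0.36, limma adjusted p = 0.26). Rpsa, also known as the laminin receptor precursor, had 80.4 and 70.0 RPKM in HS libraries against 122 and 114 RPKM in UN libraries (-0.65, SE 0.16, limma adjusted p = 0.059). The groups of Fau and Rpsa did not overlap either.

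**Figure D2:**
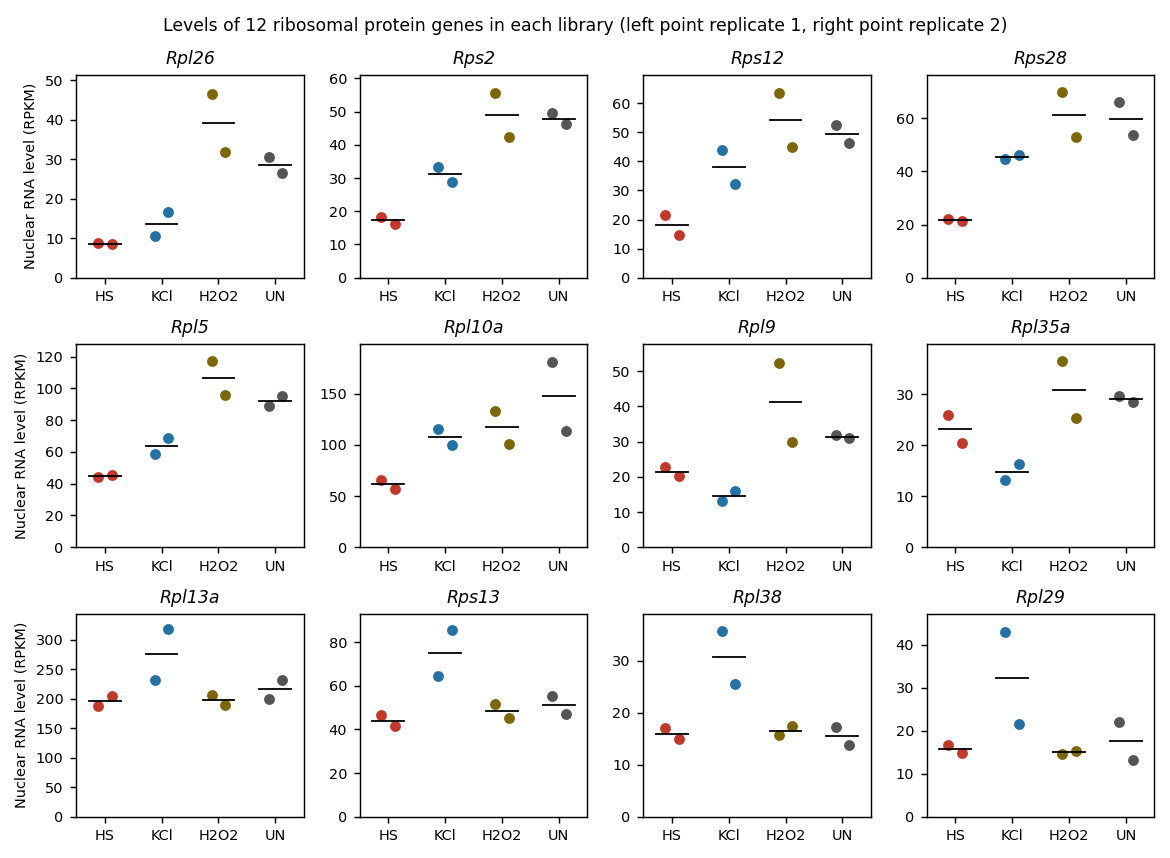
RPKM of 12 members in each library (vertical axes from 0), with replicates 1 and 2 as left and right points and the group mean as a bar. Rpl26, Rps2, Rps12, Rps28, Rpl5 and Rpl10a are lowest in HS, Rpl9 and Rpl35a are lowest in KCl, and Rpl13a, Rps13, Rpl38 and Rpl29 have their highest library in KCl.

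The stalk, which recruits elongation factors, had 0 of 3 genes called and a median of -0.74. Rplp0, its base, had 308 and 293 RPKM in HS libraries against 532 and 489 RPKM in UN libraries (-0.76, SE 0.19, limma adjusted p = 0.065). Rplp1 had 277 and 269 RPKM in HS libraries against 374 and 408 RPKM in UN libraries (-0.52, SE 0.26, limma adjusted p = 0.26). Rplp2 had 48.4 and 49.0 RPKM in HS libraries against 83.0 and 80.0 RPKM in UN libraries (-0.74, SE 0.27, limma adjusted p = 0.15). All 3 were without overlap between HS and UN, in the same direction as the called genes.

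Of the like paralogs 5 were tested and 0 called, with a median of -0.33. Rps27l, a p53 target, had 261 and 246 RPKM in HS libraries against 292 and 308 RPKM in UN libraries (-0.24, limma adjusted p = 0.50). Its partner Rps27 had 11.6 and 10.3 RPKM in HS libraries against 26.5 and 18.9 RPKM in UN libraries (-1.0, SE 0.25, limma adjusted p = 0.066). In UN, Rps27l was 13.2 times as high as Rps27. Rpl22l1 had 21.7 and 25.8 RPKM in HS libraries against 33.5 and 44.4 RPKM in UN libraries (-0.70, limma adjusted p = 0.16), and Rpl22 had 235 and 226 RPKM in HS libraries against 332 and 304 RPKM in UN libraries (-0.46, limma adjusted p = 0.17). The HS and UN libraries of these 4 genes did not overlap.

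Rpl39l, known for its use in male germ cells, was at 84.5 and 85.7 RPKM in HS libraries against 107 and 101 RPKM in UN libraries (-0.29, limma adjusted p = 0.27). Its partner Rpl39, of the peptide tunnel, had 401 and 398 RPKM in HS libraries against 725 and 672 RPKM in UN libraries (-0.81, SE 0.21, limma adjusted p = 0.074). Rpl7l1 had 29.3 and 26.4 RPKM in HS libraries against 40.1 and 30.8 RPKM in UN libraries (-0.33, limma adjusted p = 0.29), and Rpl7 had 59.8 and 67.7 RPKM in HS libraries against 101 and 98.5 RPKM in UN libraries (-0.64, limma adjusted p = 0.073). Rpl32l, a processed pseudogene in GENCODE M21, had -0.38 (limma adjusted p = 0.16). The HS and UN libraries of these genes did not overlap.

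At the other end of the family stood members near 0. Rpl38, known in mice for its part in the translation of Hox mRNAs, had 17.0 and 14.9 RPKM in HS libraries against 17.2 and 13.9 RPKM in UN libraries (0.04, SE 0.20, limma adjusted p = 0.93). Rpl29 had 16.7 and 14.8 RPKM in HS libraries against 22.1 and 13.2 RPKM in UN libraries (-0.12, SE 0.36, limma adjusted p = 0.87), and it is listed in 3 rows, of which the highest is given. Rpl13a had 188 and 204 RPKM in HS libraries against 199 and 232 RPKM in UN libraries (-0.13, SE 0.20, limma adjusted p = 0.72). For these 3 the HS and UN libraries overlapped. Rps3a1 (-0.14), Rpl15 (-0.20) and Rps13 (-0.22) completed the 6 highest members of at least 1 RPKM, with limma adjusted p of 0.54, 0.42 and 0.50.

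The 15 calls rest on few libraries. They became 0 without HS replicate 1, HS replicate 2 or UN replicate 1, 1 without UN replicate 2, 6 without either H2O2 library and 21 without either KCl library. They also became 0 with libraries scaled to a common sum, 8 with median-of-ratios scaling, 8 with a common sum without the 100 highest rows and 5 without the filter on low values. The members' median stayed below 0 in each of the 4 other scalings, at -0.12 to -0.48, while the median of all rows moved from -0.09 to 0.30 with the common sum and to 0.12 without the highest rows. Relative to all rows, the members' median was -0.28 to -0.56 over every setting tried. Rpl26, Rps2, Rps12, Rps28 and Rpl10a were called under 3 of the 4 other scalings, while Rpl18, Rpl27 and Rps21 were called under none of them.

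**Figure D3:**
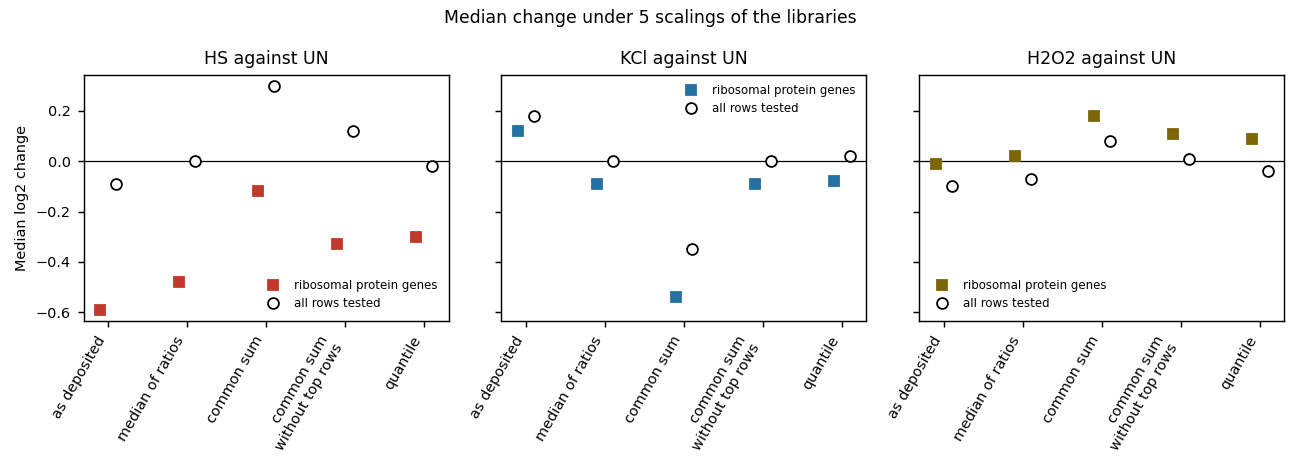
Median log2 change of the 83 members tested (squares) and of all rows tested (circles) under 5 scalings, for HS, KCl and H2O2 against UN. In HS the squares lie below the circles and below 0 in each scaling, whereas in KCl the members' sign differs between scalings.

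The heat shock changes were also split by features of the genes, as a description. The median was -0.54 for 23 members with a tract (4 called) and -0.61 for 58 without one (11 called). It was -0.65 for 30 members with an annotated snoRNA inside the gene (6 called) and -0.55 for 52 without (9 called). Members whose pseudogene row exceeded them in UN had a median of -0.59 (23 members, 6 called), those with lower pseudogene rows -0.51 (30 members, 4 called) and those with none named -0.62 (30 members, 5 called). CCGGAAG in the window went with -0.57 (26 members, 3 called) and its absence with -0.64 (37 members, 8 called). CTTTCC went with -0.62 (25 members, 3 called) and its absence with -0.59 (38 members, 8 called). Over 116 tested pseudogene rows the median was -0.34, with 5 lower and 1 higher. The lower count is near the share of all rows (4.08% lower and 2.54% higher). These rows can hold reads of the genes themselves.

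Other genes of protein synthesis were looked up under heat shock. Of 16 rows for further genes with TOP mRNAs (translation factors and others), 1 was lower and 0 higher (against 4.08% lower and 2.54% higher of all rows), with a median of -0.55. The rows Gnb2l1 and Rack1 are the older and newer name of 1 gene, and the median was -0.52 with the higher row alone, a choice made after seeing the data. The row called lower was Eef1d, an exchange factor of elongation, at 102 and 97.7 RPKM in HS libraries against 192 and 167 RPKM in UN libraries (-0.84, limma adjusted p = 0.048). Rps27a, which encodes a ubiquitin fused to a ribosomal protein, had 29.9 and 32.3 RPKM in HS libraries against 54.1 and 53.8 RPKM in UN libraries (-0.79, limma adjusted p = 0.089). For neither Eef1d nor Rps27a did the HS and UN libraries overlap.

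Of 50 ribosome biogenesis genes, 7 were lower and 0 higher (against 4.08% lower and 2.54% higher of all rows), with a median of -0.35. Ncl, the nucleolar protein nucleolin, had 13.2 and 14.4 RPKM in HS libraries against 30.7 and 34.8 RPKM in UN libraries (-1.22, limma adjusted p = 0.017). Polr1a, the largest subunit of RNA polymerase I, had 22.8 and 23.7 RPKM in HS libraries against 59.9 and 46.3 RPKM in UN libraries (-1.16, limma adjusted p = 0.019). Heatr1, a factor of early pre-ribosomes, followed with -0.95 (limma adjusted p = 0.017). HS values of all 3 lay below the UN values.

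Of 12 genes around mTOR and LARP1, 0 were lower and 1 was higher (against 4.08% lower and 2.54% higher of all rows), with a median of -0.01. Rheb, the GTPase that activates mTOR, had 52.1 and 49.3 RPKM in HS libraries against 26.3 and 23.1 RPKM in UN libraries (1.02, SE 0.16, limma adjusted p = 0.023). Both HS values of Rheb were above both UN values. Of 76 genes of the mitochondrial ribosome, a separate ribosome encoded by other genes, 4 were lower and 0 higher, near the shares of all rows (4.08% lower and 2.54% higher), with a median of -0.15. The 3 with the lowest adjusted p were Mrps5 (-0.89), Mrps31 (-0.78) and Mrps18b (-0.69), with limma adjusted p of 0.016, 0.024 and 0.031.

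Other measures moved with heat shock too. The 13 mitochondrially encoded genes summed to 2044 and 2923 RPKM in HS libraries against 5061 and 3217 RPKM in UN libraries, and 0 of the 11 tested were called (median -0.76). The 8 fibroblast markers summed to 4089 and 4139 RPKM in HS libraries against 8791 and 8334 RPKM in UN libraries, with 2 called lower (4.08% of all rows). S100a4 made up most of that sum, at 2467 and 2714 RPKM in HS libraries against 5643 and 6096 RPKM in UN libraries. Its change was not called (-1.18, limma adjusted p = 0.14). Col1a1 (-0.02) and Col1a2 (-0.01) hardly moved, while the median of the 8 markers was -0.86. The 11 markers of other cell types summed to 11.6 and 11.6 RPKM in HS libraries against 34 and 21.3 RPKM in UN libraries. Of the 4 tested, 2 were called lower (4.08% of all rows), and no marker was at 0 in every library. The other 2, Cdh1 and Pecam1, passed the filter only through H2O2 libraries (1.01 and 0.663 RPKM, and 0.887 and 0.515 RPKM). They were near 0 in HS and UN libraries, so they could hardly show a fall. Most of the sum over other cell types was Cd68, at 8.39 and 8.72 RPKM in HS libraries against 28.6 and 16.9 RPKM in UN libraries. Without the 100 highest rows, library sums were 279738 and 270226 RPKM in HS libraries against 349929 and 313931 RPKM in UN libraries. The part of these differences in the members' change was not tested.

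**Figure D4:**
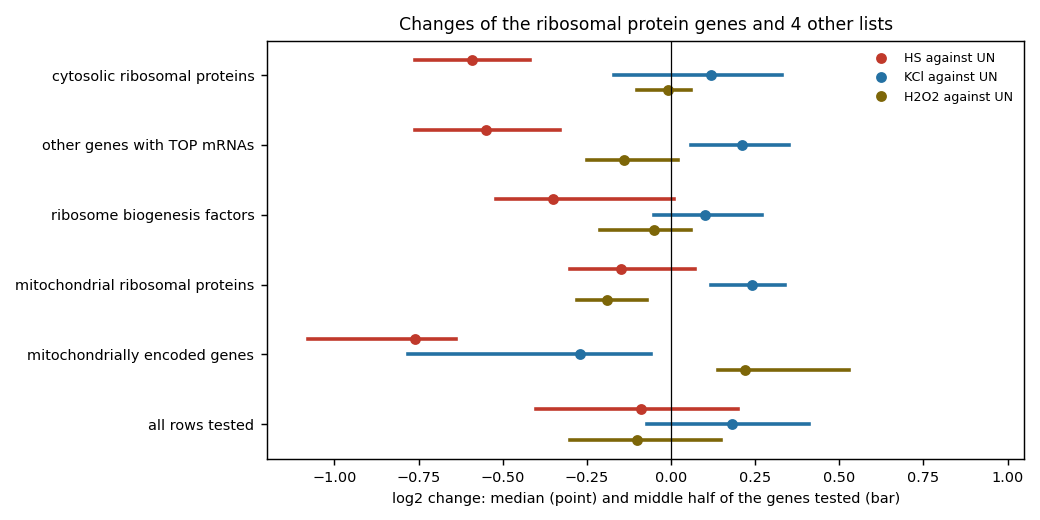
Log2 change against UN, as the median (point) and the middle 50% of the genes tested (bar), for the members, 4 other lists and all rows. Under HS the members (-0.59), other TOP genes (-0.55) and mitochondrially encoded genes (-0.76) lie lowest, and all rows have a median of -0.09.

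Under osmotic stress no member was called in either direction. KCl libraries were set against UN libraries for the same 83 members: limma called 0 lower (0.262% of all rows) and 0 higher (0.43% of all rows). There were 21 at an unadjusted p under 0.05, again without a computed share of all rows to set beside them. Both KCl libraries were below both UN libraries for 16 members (12.4% of all rows) and above both for 32 (38.8% of all rows). The median log2 change was 0.12, against 0.18 over all rows, and was -0.03 within the table of replicate 1 and 0.28 within that of replicate 2. Without KCl replicate 1 the median was 0.27, and without KCl replicate 2 it was 0.04, with 1 member then called lower and 2 higher. With the 4 other scalings it was -0.08 to -0.54.

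The lowest members were large-subunit genes, 5 of the lowest 6. Most of the highest members were large-subunit genes as well. The medians of the large and the small subunit were 0.09 and 0.11. Rpl9 had 13.0 and 16.0 RPKM in KCl libraries against 31.8 and 31.1 RPKM in UN libraries (-1.10, SE 0.26, limma adjusted p = 0.10). Rpl26 had 10.6 and 16.7 RPKM in KCl libraries against 30.6 and 26.6 RPKM in UN libraries (-1.07, SE 0.26, limma adjusted p = 0.10). Rpl35a, whose human counterpart is mutated in some cases of Diamond-Blackfan anaemia, had 13.2 and 16.4 RPKM in KCl libraries against 29.7 and 28.5 RPKM in UN libraries (-0.96, SE 0.22, limma adjusted p = 0.097). In all 3 both KCl values were below both UN values, and the lower one was in replicate 1.

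Rpl12, at the base of the stalk, had 47.8 and 61.7 RPKM in KCl libraries against 108 and 94.1 RPKM in UN libraries (-0.89, limma adjusted p = 0.12). Rpl30 had 40.0 and 35.4 RPKM in KCl libraries against 62.4 and 57.3 RPKM in UN libraries (-0.66, limma adjusted p = 0.10), and Rps2 had 33.4 and 28.8 RPKM in KCl libraries against 49.5 and 46.2 RPKM in UN libraries (-0.62, limma adjusted p = 0.12). These 3 were also without overlap. The summed pseudogene rows of Rpl9, Rpl35a, Rpl30 and Rps2 did not fall with the genes. They were at 174, 110, 353 and 82.1 RPKM in UN and 189, 150, 561 and 137 RPKM in KCl. For Rpl12 and Rpl26 such rows were low, summing to 5.52 and 0.0272 RPKM in UN. The part of divided reads in these changes was not tested. Rpl5 had -0.54 (limma adjusted p = 0.13) and Rpl11 0.40 (limma adjusted p = 0.23).

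At the top, Rpl38 had 35.8 and 25.6 RPKM in KCl libraries against 17.2 and 13.9 RPKM in UN libraries (0.95, SE 0.20, limma adjusted p = 0.091). Rpl29 had 43.1 and 21.5 RPKM in KCl libraries against 22.1 and 13.2 RPKM in UN libraries, so the groups overlapped (0.81, SE 0.36, limma adjusted p = 0.24). Rpl41, which encodes a very short basic peptide, had 764 and 579 RPKM in KCl libraries against 414 and 447 RPKM in UN libraries (0.63, SE 0.22, limma adjusted p = 0.17). Each of the 3 had its higher KCl value in replicate 1, the library in which Malat1 is listed at 0. Rpl28 (0.61), Rpl4 (0.58) and Rps23 (0.54) followed, with limma adjusted p of 0.24, 0.19 and 0.092. Rps23 had 57.9 and 57.1 RPKM in KCl libraries against 40.7 and 37.9 RPKM in UN libraries, the smallest spread of these.

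The stalk genes had 541 and 591 RPKM (Rplp0), 290 and 481 RPKM (Rplp1) and 48.1 and 85.2 RPKM (Rplp2) in KCl libraries, against 532 and 489, 374 and 408, and 83.0 and 80.0 RPKM in UN libraries. For Rplp1 and Rplp2 the 2 KCl libraries lay on either side of the UN libraries. Such disagreement was wider in this group than in the others: replicate 2 exceeded replicate 1 by over 1.5-fold for 13 members and the reverse held for 4, and the SD of the replicate difference was 0.45 on the log2 scale. In HS, H2O2 and UN the SD was 0.18, 0.22 and 0.23. The wider spread in KCl was not particular to the members. Over all 16056 rows the SD was 0.87 in KCl, against 0.52, 0.61 and 0.57 in HS, H2O2 and UN. By the same 1.5-fold rule, KCl replicate 2 was higher for 1030 of all rows and replicate 1 for 1691.

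Among the like paralogs, Rpl32l had 62.1 and 50.0 RPKM in KCl libraries against 39.1 and 41.1 RPKM in UN libraries (0.47, limma adjusted p = 0.14). Rps27l, Rpl39l, Rpl22l1 and Rpl7l1 had 0.15, 0.18, 0.15 and 0.01, with limma adjusted p of 0.50 or more. Of the further TOP genes, biogenesis genes, mTOR and LARP1 genes and mitochondrial ribosomal genes, 0 were called (0.262% lower and 0.43% higher of all rows). Their medians were 0.21, 0.10, 0.27 and 0.24, against 0.18 over all rows. Rps27a had 23.2 and 25.4 RPKM in KCl libraries against 54.1 and 53.8 RPKM in UN libraries (-1.14, SE 0.23, limma adjusted p = 0.084). The pseudogene rows tested had a median of 0.42, with 0 called (0.262% lower and 0.43% higher of all rows).

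**Figure D5:**
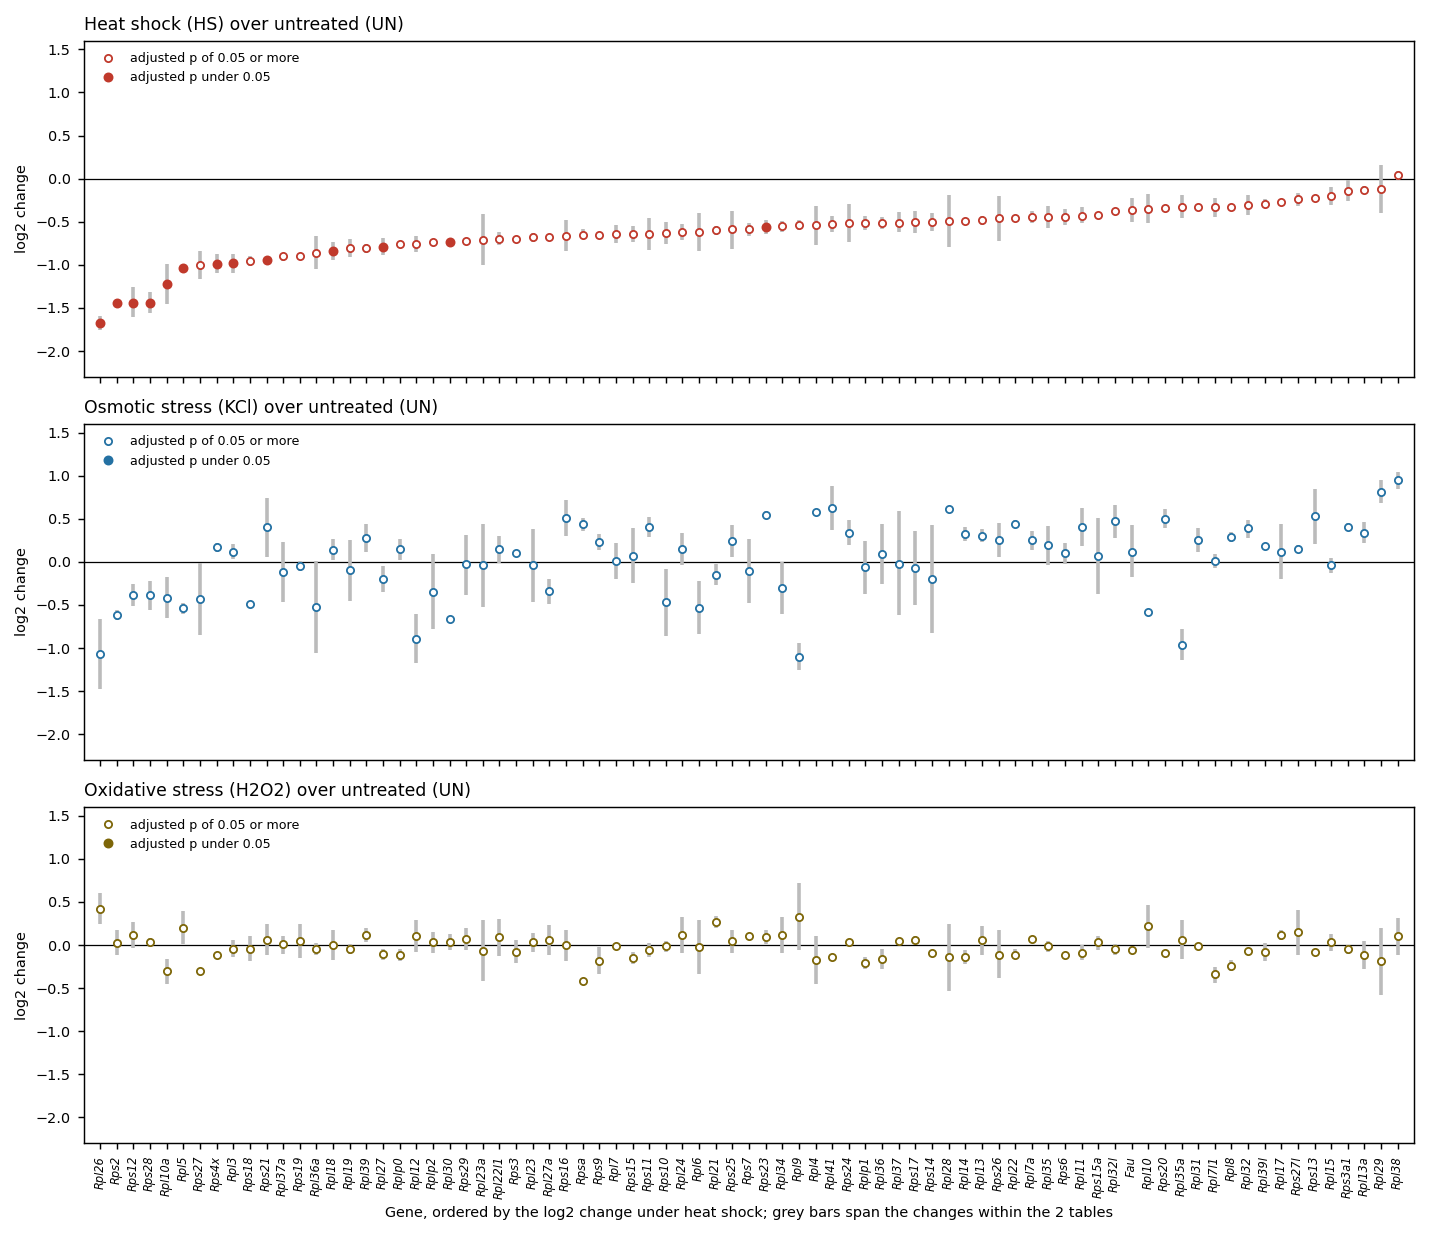
Log2 change against UN of 79 of the tested members (Rps3a is among those not drawn) under HS, KCl and H2O2, with genes in the same order in each panel, grey bars for the changes within the 2 tables and filled points for limma calls. Under HS all but Rpl38 lie below 0, under KCl changes run from -1.10 for Rpl9 to 0.95 for Rpl38, and under H2O2 all lie between -0.42 and 0.42.

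Under oxidative stress no member was called and the changes spanned the narrowest range of the 3 stresses. H2O2 libraries were compared with UN libraries: limma called 0 of 83 members lower (0.193% of all rows) and 0 higher (1.29% of all rows). There was 1 at an unadjusted p under 0.05 (share of all rows not computed). Both H2O2 libraries were below both UN libraries for 12 members (30.1% of all rows) and above both for 5 (18% of all rows). The median was -0.01, against -0.10 over all rows, and 0.02 to 0.18 with other scalings. Changes ran from -0.42 for Rpsa to 0.42 for Rpl26.

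Rpsa had 92.1 and 83.3 RPKM in H2O2 libraries against 122 and 114 RPKM in UN libraries (-0.42, SE 0.16, limma adjusted p = 0.23), without overlap. Rpl26 had 46.6 and 31.7 RPKM in H2O2 libraries against 30.6 and 26.6 RPKM in UN libraries (0.42, SE 0.26, limma adjusted p = 0.45). Its H2O2 libraries were both above the UN libraries and differed between themselves by more than the distance of the lower one to UN. Rpl9 (0.33), Rpl21 (0.27), Rpl10 (0.22) and Rpl5 (0.20) were next, and Rpl7l1 (-0.34), Rps27 (-0.30), Rpl10a (-0.30), Rpl8 (-0.24) and Rplp1 (-0.21) were lowest after Rpsa. None passed, with limma adjusted p of 0.37 or more. Rps2 and Rps28 had 0.02 and 0.03, with 55.7 and 42.4 RPKM and 69.7 and 53.0 RPKM in H2O2 libraries.

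Further TOP genes, biogenesis genes, mTOR and LARP1 genes and mitochondrial ribosomal genes had 0 calls under H2O2 (0.193% lower and 1.29% higher of all rows). Their medians were -0.14, -0.05, -0.22 and -0.19, against -0.10 over all rows. Rps27a had 0.50 (limma adjusted p = 0.32). The mitochondrially encoded genes summed to 3935 and 4097 RPKM in H2O2 libraries, between the UN values of 5061 and 3217 RPKM. The pseudogene rows had a median of -0.07 and 0 calls (0.193% lower and 1.29% higher of all rows).

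Heat shock was also set directly against each of the other stresses. Against H2O2, 22 of 83 members were lower in HS (8.4% of all rows) and 0 higher (5.76% of all rows). Both HS libraries were below both H2O2 libraries for 75 members (33.5% of all rows) and above both for 1 (31.5% of all rows). The median was -0.58, against -0.01 over all rows, and stayed below 0 in the 4 other scalings (-0.30 to -0.50). Rpl26 had 8.67 and 8.50 RPKM in HS libraries against 46.6 and 31.7 RPKM in H2O2 libraries (-2.10, SE 0.26, limma adjusted p = 0.0092). Rps12 (-1.56), Rps28 (-1.47), Rps2 (-1.47) and Rpl5 (-1.24) followed, with limma adjusted p from 0.0086 to 0.019.

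Nearest to or above 0 between HS and H2O2 were Rpl29 (0.07), Rpl7l1 (0.01), Rpl13a (-0.02) and Rpl38 (-0.06), each with overlapping libraries. The count of calls became 0 without either HS library or without H2O2 replicate 1, 7 without H2O2 replicate 2, and 0 with the common sum.

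Against KCl, 30 of 83 members were lower in HS (6.42% of all rows) and 0 higher (1.78% of all rows). Both HS libraries were below both KCl libraries for 71 members (50.2% of all rows) and above both for 2 (9.28% of all rows). The median was -0.69, against -0.26 over all rows, but it was 0.44 with the common sum (0.70 over all rows) and -0.16 to -0.36 with the other 3 scalings. Calls fell to 0, 2, 0 and 3 with the common sum, median-of-ratios, the common sum without the highest rows and quantile normalization. Without KCl replicate 1 there were 4 calls, without KCl replicate 2 there were 16, and without either HS library 0.

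The lowest members in this comparison belonged mostly to the small subunit, which had 15 of its 32 called, against 13 of 43 in the large subunit. Rps21 had 63.5 and 76.9 RPKM in HS libraries against 203 and 155 RPKM in KCl libraries (-1.34, SE 0.20, limma adjusted p = 0.019). Rps16 had 29.8 and 30.4 RPKM in HS libraries against 69.4 and 67.4 RPKM in KCl libraries (-1.17, SE 0.15, limma adjusted p = 0.014). Both genes were more than 2-fold higher in every KCl library than in any HS library. Rpl41 had 269 and 331 RPKM in HS libraries against 764 and 579 RPKM in KCl libraries (-1.16, SE 0.22, limma adjusted p = 0.030), and Rps23 had -1.10 (SE 0.12, limma adjusted p = 0.0082) but 0.03 with the common sum.

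Only Rpl35a, Rpl9, Rpl10 and Rpl12 lay above 0 between HS and KCl as deposited. Rpl35a had 26.0 and 20.5 RPKM in HS libraries against 13.2 and 16.4 RPKM in KCl libraries (0.63, SE 0.22, limma adjusted p = 0.12). Rpl9 had 22.7 and 20.3 RPKM in HS libraries against 13.0 and 16.0 RPKM in KCl libraries (0.56, SE 0.26, limma adjusted p = 0.22). In these 2 genes every HS library was above every KCl library, short of the threshold. Their summed pseudogene rows went the other way. Those of Rpl35a were at 87.8 RPKM in HS and 150 RPKM in KCl, and those of Rpl9 at 116 and 189 RPKM. Of 116 pseudogene rows, 50 were lower and 1 higher in HS than in KCl (median -0.73), against 6.42% lower and 1.78% higher of all rows.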

How the data were processed

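Nuclear RNA of 8 NIH3T3 libraries in 4 groups was sequenced. The submitters' processing notes list Bowtie, SAMtools, Cufflinks and the mouse build mm9. Their versions, the annotation and the counting of reads shared by copies were not given in the sources used here. Each table holds RPKM for every gene model, per the file headers. The RPKM of the authors came in 2 tables with 1 library of each group and were used without rescaling. Columns were matched by their headers, and 0 were unmatched. Counts were not used, so depth is known only relative to another library, and no counting intervals were computed.

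The 16056 rows with 0.5 RPKM or more in 2 or more libraries were tested on log2(RPKM + 0.5) in limma 3.58.1 (R 4.3.3) with a mean trend, all 4 groups in 1 fit (residual df 4, prior df 2.59), two-sided, with Benjamini-Hochberg adjustment over all rows tested and calls under 0.05. With 2 against 2 libraries an exact permutation test cannot go below p = 0.333. Tried were 2 other pseudocounts, 2 filters, 4 scalings, a replicate block, summed rows and leaving out each library. Added after seeing the data was the count of groups without overlap under each scaling. Names, transcripts and snoRNAs came from GENCODE M21 (GRCm38) and windows from RefSeq (GRCm38.p6), without use of mm9 coordinates.

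Members and lists (other TOP genes, Rps27a, ribosome biogenesis, mTOR and LARP1, mitochondrial ribosome, mitochondrially encoded, fibroblast and other-cell markers) were chosen with earlier results of these data known. Named members were the 6 lowest and 6 highest of at least 1 RPKM against UN, the 4 lowest and 4 highest between stresses, the 5 highest and 5 lowest in UN, all like paralogs and a set chosen by role, and per list up to 3 called genes. Some items that these rules name are not reported here.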

Additional observations from a re-analysis of the deposited data

How the results depend on the processing

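For HS against UN, 15 members were called lower as deposited, 5 without the filter, 8 with median-of-ratios, 0 with the common sum, 8 with the common sum without the highest rows and 30 with the replicate block, and 0 to 21 on leaving out 1 library. Higher calls were 1 with a pseudocount of 0.1, 1 with the common sum and 0 to 1 without a library. The median was -0.48, -0.12, -0.33 and -0.30 with median-of-ratios, the common sum, that sum without the highest rows and quantile normalization, and -0.65 to -0.51 without a library. For KCl against UN, 1 member was lower with the common sum without the highest rows, with quantile normalization and with the replicate block, 0 to 1 were lower and 0 to 2 higher without a library, and the median was -0.54 with the common sum and 0.04 to 0.27 without a library. For H2O2 against UN, calls stayed at 0 in each setting, and the median was 0.18, 0.11 and 0.09 with the common sum, that sum without the highest rows and quantile normalization, and -0.12 to 0.06 without a library. For HS against KCl, 30 lower calls became 18 without the filter, 2, 0, 0 and 3 with median-of-ratios, the common sum, that sum without the highest rows and quantile normalization, and 0 to 18 without a library. Its median was -0.36, 0.44, -0.22 and -0.16 with these 4 scalings. For HS against H2O2, 22 lower calls became 0 with the common sum, 14 without its highest rows, 35 with the replicate block and 0 to 28 without a library. Higher calls were 1 with a pseudocount of 0.1, with the common sum, with that sum without the highest rows, and 0 to 1 without a library, and the median was -0.30, -0.44 and -0.44 with the last 3 scalings. The cause of these shifts was not tested.

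The counts without overlap moved with the scaling as well, and so did the shares of all rows, given after each count. With median-of-ratios scaling, members were 71 (29.5%) below and 1 (29.3%) above in HS against UN, 24 (24%) below and 13 (23%) above in KCl against UN, 5 (28.5%) below and 8 (19.4%) above in H2O2 against UN, 49 (23.2%) below and 6 (26.7%) above in HS against KCl, and 70 (29.4%) below and 2 (36.2%) above in HS against H2O2. With the common sum, members were 33 (11.5%) below and 15 (52.7%) above in HS against UN, 21 (18.8%) below and 1 (2.66%) above in KCl against UN, 1 (14.3%) below and 47 (30.6%) above in H2O2 against UN, 0 (1.57%) below and 11 (50.3%) above in HS against KCl, and 54 (20.1%) below and 9 (45.7%) above in HS against H2O2. With the common sum without the highest rows, members were 61 (20.7%) below and 2 (39.1%) above in HS against UN, 25 (22%) below and 12 (24.1%) above in KCl against UN, 3 (19.1%) below and 32 (24%) above in H2O2 against UN, 35 (14.5%) below and 8 (38.1%) above in HS against KCl, and 67 (25.7%) below and 5 (38.3%) above in HS against H2O2. With quantile normalization, members were 57 (30.7%) below and 5 (28%) above in HS against UN, 23 (21.6%) below and 10 (25.6%) above in KCl against UN, 3 (26.1%) below and 30 (20.6%) above in H2O2 against UN, 28 (27.5%) below and 8 (23.7%) above in HS against KCl, and 57 (30.2%) below and 6 (34.2%) above in HS against H2O2.

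In HS against KCl the common sum moved the median of all rows from -0.26 to 0.70 and that of the members from -0.69 to 0.44. Members both named and called that had a value above 0 with it were Rpl11 0.30, Rpl22 0.25, Rpl3 0.03, Rpl32l 0.28, Rpl38 0.22, Rpl39 0.07, Rpl4 0.02, Rplp0 0.24, Rps2 0.29, Rps23 0.03, Rps28 0.08, Rps3a1 0.60 and Rpsa 0.06, and Rplp0 was 0.01 with quantile normalization.

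The labels do not say that replicate numbers pair samples. Deviations of same-numbered libraries correlated across rows with r from 0.0624 (KCl and UN) to 0.264 (HS and H2O2), above 0.1 in 5 of 6 pairs of groups, so pairing was not established and the fit without a block stands. The replicate block moved the lower calls to 30, 1, 0, 42 and 35 for HS, KCl and H2O2 against UN, HS against KCl and HS against H2O2. With 2 libraries a group, changes as large as -1.0 (SE 0.25) for Rps27 under HS and -1.10 (SE 0.26) for Rpl9 under KCl were not called.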
